A study of Mus musculus with 11 samples.

Results

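The comparison described here sets 4 RNA-seq libraries of SPT16-degron mouse embryonic stem cells kept in ethanol (EtOH) against 3 libraries of untagged cells given indole-3-acetic acid (IAA). Neither side was meant to lose SPT16, so the comparison shows what the lines, the tag and the auxin treatment leave in the transcriptome while FACT is present. The libraries were chosen by their labels, 7 of the 10 in the count table, and all 55291 genes of the table were considered, of which 17439 had counts high enough to be tested.

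All cells were of the E14 embryonic stem cell line, grown without feeder cells in serum medium with LIF and inhibitors of GSK3 and MEK. The tagged group comprised lines 10E and 11D, each with 2 libraries, in which an auxin-inducible degron (AID) and a V5 tag were added to the C-terminal end of endogenous SPT16. The lines were targeted independently and each stands for 1 clone. The tagged cells received EtOH, the solvent, for 24 hours and the untagged cells, by their labels, 500 nM IAA for the same time. The untagged libraries carry the code TIR1, the name of the plant receptor that joins a degron-tagged protein to a cellular ubiquitin ligase once auxin is bound, and whether the tagged lines carry that receptor too is not given in the sources used here. The file names these libraries by the codes 10E, 11D and TIR1. The codes 10E and 11D are not tied to the clone numbers in the labels, and TIR1 was read as the untagged line because it alone has an IAA replicate 3 and no EtOH library. No untagged EtOH library was analysed here. Line, tag and IAA therefore differ together between the groups and cannot be told apart in any difference described below.

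FACT, a dimer of SPT16 and SSRP1, is a histone chaperone that loosens and reassembles nucleosomes ahead of and behind RNA polymerase and the replication fork. Degron lines are built to remove such a protein within hours, and their vehicle-treated state serves as the reference for that loss. Tagging and cloning can by themselves change a line, and indole compounds such as IAA are known ligands of the aryl hydrocarbon receptor (AHR), a ligand-activated transcription factor that induces its own set of detoxifying enzymes.

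Library totals ran from 3554390 to 11848952 counts in the EtOH group and from 4521137 to 11271067 in the untagged group. Levels are given as CPM, the usual depth-scaled count, with TMM factors over the 10 libraries. The 10 embryonic stem cell markers together took 4896 to 6420 CPM in EtOH and 5483 to 5745 CPM in untagged libraries, and none was at 0 in any of the 7. Of the 8 fibroblast markers, Dcn, Lum and Twist2 were at 0 in 6 of the 7 libraries, and the list summed to 21.6 to 34.5 CPM in EtOH and 22.2 to 28.7 CPM in untagged libraries, mostly from Pdgfrb. CT010467.1 made up 0.129% to 0.815% of the counts of 5 libraries, 2.64% of those of 10E EtOH replicate 2 and 4.27% for replicate 1 of 11D EtOH. One further library stands apart for the AHR target genes, untagged replicate 3, and their results are given with and without it. It is labelled as given IAA like the other 2, and whether it was cannot be told from the files. Every value against untagged IAA below includes it unless stated.

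Of the 17439 genes tested, 622 (3.57%) differed between tagged EtOH and untagged IAA at a false discovery rate (FDR) under 0.05 in edgeR's quasi-likelihood test with Benjamini-Hochberg adjustment. Of these, 222 (1.27% of the genes tested) were higher in tagged EtOH and 400 (2.29%) lower, and 92 differed at least 2-fold, 19 of them higher and 73 lower. The median log2 fold change over all genes was -0.0048. With library totals in place of TMM scaling, 241 genes were higher and 715 lower. The 4 EtOH libraries all lay above the 3 untagged libraries for 1173 genes (6.73%) and all below them for 1408 (8.07%).

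The test takes the average of the lines as given and asks whether it departs from the untagged line. When the 4 EtOH libraries were instead treated as replicates of 1 group, so that differences between the lines counted as spread, edgeR called 0 genes, the smallest FDR was 0.0988, and 2558 genes had an unadjusted p under 0.05. The calls below therefore hold for these 2 lines and are not shown for tagged lines in general. Leaving out a library moved the count to 83 without untagged replicate 1, 140 without untagged replicate 2, 216 without 10E replicate 1, 237 without 11D replicate 1 and 1003 without 11D replicate 2, and the fit to the 7 libraries alone called 222 genes. Of 79 called genes picked for naming by rank and list, 23 passed with each of the 7 libraries left out in turn: Supt16, Dnmt3l, Cdx2, T, Hormad1, Cyp1a1, Ndufa4l2, Ak4, Rian, Meg3, Zfy1, Klhl13, Rpl41, Rpl39, Zfp423, Zfp638, Zfp951, Snhg11, Aire, Slco4a1, Xlr3b, Nxf3 and Mal. The other 56 lost their call without at least 1 library, and all 56 lost it without at least 1 of untagged replicates 1 and 2.

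Taken line by line, 1013 genes (5.81%) differed between 10E EtOH and untagged IAA and 443 (2.54%) between 11D EtOH and untagged IAA. These 2 comparisons share the untagged libraries. The tagged lines themselves differed at 579 genes (3.32%), a number of the same order as the 622 that set their average apart from the untagged line.

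The transcript of the tagged gene was lower in the tagged lines before any auxin was added. Supt16 lies on the minus strand of chromosome 14 (GRCm38, 52160414 to 52197416). Its level was 384 and 416 CPM in 10E EtOH and 364 and 390 CPM in 11D EtOH. In the untagged libraries it stood at 553, 538 and 577 CPM. Every EtOH library lay below every untagged library. The log2 fold change was -0.52 ± 0.08 (SE, edgeR FDR 0.00715), with -0.48 in 10E and -0.56 in 11D, and it ranged from -0.55 to -0.49 when each library was left out. Protein, on which the degron acts, was not assayed in these files. Supt16 shares exonic sequence with Rpgrip1 on the opposite strand, so reads of either could have been counted with the other.

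Ssrp1 (chromosome 2, positions 85037234 to 85047109, plus strand), which encodes the partner subunit, did not pass the test. Its levels were 313, 337, 282 and 308 CPM in the EtOH libraries and 296, 320 and 329 CPM in the untagged ones, and the groups overlapped (log2 fold change -0.02 ± 0.08, edgeR FDR 0.891). Supt16 was the only 1 of 30 genes for FACT and other elongation factors that was called, beside 3.57% of all genes. The median of that list was 0.11. Around the Supt16 locus, 16 genes with a start within 500 kb were tested. Sall2, which encodes a zinc finger transcription factor, was the only 1 called: it stood at 26.7, 23.8, 28.9 and 28.4 CPM in EtOH and at 17.6, 18.9 and 20.2 CPM in untagged libraries (log2 fold change 0.50 ± 0.13, edgeR FDR 0.0454). Its call was lost without any library except 10E replicate 2, with FDRs up to 0.183. Chd8, which encodes a chromatin remodeler, Hnrnpc and Tox4 had log2 fold changes between -0.02 and -0.00 and did not pass.

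**Figure D1:**
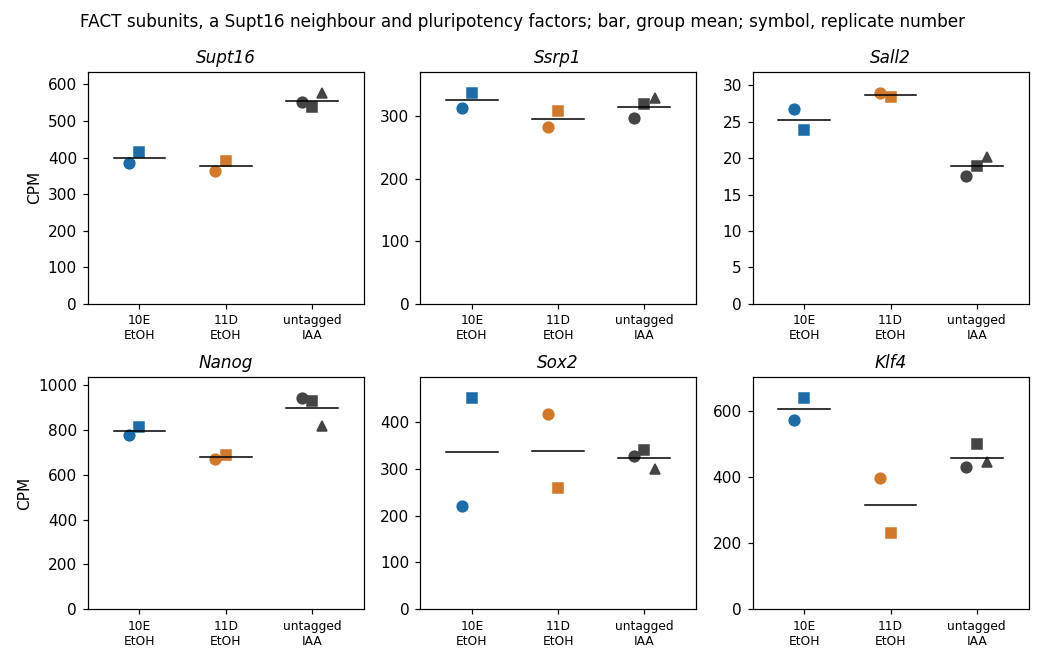
Level in each library (CPM, linear axis from 0) of the FACT genes Supt16 and Ssrp1, the neighbouring gene Sall2 and the pluripotency factors Nanog, Sox2 and Klf4, for 10E EtOH (n = 2), 11D EtOH (n = 2) and untagged IAA (n = 3), with the group mean as a bar. Supt16 lies at 364 to 416 CPM in all EtOH libraries and at 538 to 577 CPM in the untagged ones, while the groups overlap for Ssrp1, Sox2 and Klf4.

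Naive pluripotency factors passed the test in neither direction in the average of the lines. Of 35 tested members of that list, 0 were called by edgeR, 3 had all EtOH libraries on 1 side of the untagged libraries (1 above and 2 below, beside 6.73% and 8.07% of all genes), and the median log2 fold change was 0.09. Taken by line against the shared untagged libraries, 4 of the 35 were higher in 10E (Utf1, Lin28a, Esrrb and Nr0b1) and 0 in 11D. The shares of all genes higher were 2.08% in 10E and 1.34% in 11D. Nanog, the homeodomain factor of the naive network, stood at 777, 815, 668 and 690 CPM in EtOH and at 942, 930 and 819 CPM in untagged libraries, without overlap, at -0.29 ± 0.08 (edgeR FDR 0.0696). Pou5f1, which encodes OCT4, stood at 806, 936, 739 and 728 CPM in EtOH and at 622, 689 and 707 CPM in untagged libraries, also without overlap (0.25 ± 0.09, edgeR FDR 0.123). Sox2 ranged from 221 to 452 CPM among the EtOH libraries and from 301 to 341 CPM among the untagged ones, so the spread within the tagged group was wider than any difference between groups. The log2 fold changes of Esrrb, Zfp42, Tbx3, Prdm14 and Tfcp2l1 lay between -0.33 and 0.25, with FDRs from 0.116 to 0.854. Dppa3, at most 3.70 CPM in any of the 7 libraries, had an FDR of 0.311. DESeq2 put Pou5f1 (adjusted p 0.0478) and Nanog (0.0137) past the threshold.

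Klf4, a Krüppel-like factor of the naive state, was the member of that list that differed between the tagged lines. It stood at 574 and 639 CPM in 10E EtOH, at 399 and 231 CPM in 11D EtOH and at 430, 501 and 447 CPM in untagged libraries. The log2 difference of 10E from 11D was 0.96 (edgeR FDR 0.0158), and the average of the lines did not depart from the untagged level (-0.08 ± 0.15, FDR 0.803).

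Several targets of AHR were lower in tagged EtOH. This receptor waits in the cytoplasm, enters the nucleus when a ligand binds, and pairs with ARNT to bind DNA at the core sequence GCGTG. Of 11 tested members of the list, 4 were lower in tagged EtOH and 0 higher, beside 2.29% and 1.27% of all genes. Their median was -0.40 over the 11. All EtOH libraries lay above the untagged libraries for 1 of the 11 and below them for 1, beside 6.73% and 8.07% of all genes. The sums of the list overlapped, at 823 to 912 CPM in EtOH and 806 to 888 CPM in untagged libraries. Taken by line against the shared untagged libraries, 3 were lower in 10E (Cyp1a1, Tiparp and Ahrr) and 0 in 11D. The shares of all genes lower were 3.73% in 10E and 1.2% in 11D. Between the lines, Ahr alone of the list was called. For the 4 members called in the average of the lines, chosen by those calls, the 300 bases around the start are printed 5′ to 3′ along the gene's strand. The starts are those of the RefSeq annotation (GRCm38.p6, 250 before and 50 after). GCGTG or its reverse complement CACGC is in capitals. The windows lie at chr9:57697363-57697662 (plus strand) for Cyp1a1, chr17:79715012-79715311 (minus) for Cyp1b1, chr13:74292282-74292581 (minus) for Ahrr and chr3:65528197-65528496 (plus) for Tiparp.
Cyp1a1: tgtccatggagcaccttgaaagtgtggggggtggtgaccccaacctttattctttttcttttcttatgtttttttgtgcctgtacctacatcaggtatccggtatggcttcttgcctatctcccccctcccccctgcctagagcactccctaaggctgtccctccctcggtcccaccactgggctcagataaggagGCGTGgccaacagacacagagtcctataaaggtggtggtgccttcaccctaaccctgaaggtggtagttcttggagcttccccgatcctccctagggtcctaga
Cyp1b1: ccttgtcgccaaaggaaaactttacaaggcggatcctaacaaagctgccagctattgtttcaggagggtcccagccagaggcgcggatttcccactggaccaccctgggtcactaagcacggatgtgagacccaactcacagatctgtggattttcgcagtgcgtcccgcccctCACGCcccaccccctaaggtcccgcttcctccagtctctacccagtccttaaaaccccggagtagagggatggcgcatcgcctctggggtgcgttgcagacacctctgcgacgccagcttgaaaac
Ahrr: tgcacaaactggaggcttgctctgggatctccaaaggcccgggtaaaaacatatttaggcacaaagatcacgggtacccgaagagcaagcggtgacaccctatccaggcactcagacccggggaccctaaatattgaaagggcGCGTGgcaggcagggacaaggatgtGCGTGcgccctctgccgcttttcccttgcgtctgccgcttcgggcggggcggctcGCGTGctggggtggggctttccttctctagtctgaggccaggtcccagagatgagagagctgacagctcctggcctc
Tiparp: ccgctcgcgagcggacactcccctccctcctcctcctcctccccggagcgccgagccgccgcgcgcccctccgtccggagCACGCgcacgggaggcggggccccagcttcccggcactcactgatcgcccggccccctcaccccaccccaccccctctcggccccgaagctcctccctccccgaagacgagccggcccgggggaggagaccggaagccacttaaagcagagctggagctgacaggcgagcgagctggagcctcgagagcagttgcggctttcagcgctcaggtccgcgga

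The Cyp1a1, Cyp1b1 and Tiparp windows each held 1 match, overlapping matches counted on both strands, and the Ahrr window held 3. At least 1 match was present in 32.4% of 32851 windows of the same length and in 48.7% of the 14670 windows of tested genes, and 3 or more in 7.08% of the latter. A match in a window is a description of its letters and was not tested for binding.

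Cyp1a1, the cytochrome P450 that oxidises AHR ligands, stood at 1.70 and 0.593 CPM in 10E EtOH, at 0.934 and 8.96 CPM in 11D EtOH, and at 75.7, 65.0 and 6.89 CPM in the untagged libraries. Untagged replicate 3 lay below 11D EtOH replicate 2, so the groups overlapped, while untagged replicates 1 and 2 stood above all others. The log2 fold change was -4.14 ± 0.66 (edgeR FDR 0.00694), and -4.72 (FDR 2.6e-06) without untagged replicate 3. That library was singled out by its values for these same target genes. The FDRs without it, here and below, follow from that choice and are no independent support. Cyp1b1, a related P450, stood at 0.655 and 0 CPM in 10E EtOH, at 0 and 0.807 CPM in 11D EtOH, and at 11.3, 5.73 and 0.466 CPM in untagged libraries. Its log2 fold change was -3.47 ± 0.88 (edgeR FDR 0.0430), and -4.25 (FDR 0.000481) without untagged replicate 3.

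Ahrr, the repressor that competes with AHR for ARNT, stood at 1.18, 0.593, 0.311 and 1.79 CPM in EtOH and at 8.56, 8.76 and 1.30 CPM in untagged libraries (-2.35 ± 0.56, edgeR FDR 0.0350). Tiparp, an ADP-ribosyltransferase that modifies AHR, stood at 35.1, 46.0, 53.2 and 69.5 CPM in EtOH and at 92.3, 74.8 and 59.3 CPM in untagged libraries (-0.57 ± 0.14, edgeR FDR 0.0434). For both, untagged replicate 3 again lay within the range of the EtOH libraries, and without it their FDRs were 0.000396 and 0.0153. Cyp1b1, Ahrr and Tiparp each lost their call without 10E replicate 1, 11D replicate 1, untagged replicate 1 or untagged replicate 2, and Cyp1b1 and Ahrr also without 10E replicate 2, with FDRs up to 0.231, 0.181 and 0.228. The count of lower members was 1 without any of those first 4 libraries and 1 in the fit to the 7 libraries. Without 10E replicate 2, 11D replicate 2 or untagged replicate 3, 1 member of the list was called higher.

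The receptor itself was not called. Ahr stood at 16.6 and 16.9 CPM in 10E EtOH, at 26.8 and 31.2 CPM in 11D EtOH and at 24.3, 23.8 and 21.4 CPM in untagged libraries, and it was lower in 10E than in 11D (edgeR FDR 0.0164). Arnt ranged from 169 to 214 CPM in EtOH and from 183 to 204 CPM in untagged libraries (FDR 0.961). Nqo1, a quinone reductase that both AHR and NRF2 induce, had a log2 fold change of -0.31 and an FDR of 0.308. In the 3 tagged libraries given IAA, which enter no test here, Cyp1a1 stood at 118 to 173 CPM and Cyp1b1 at 63.6 to 80.7 CPM, above every untagged IAA library.

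**Figure D2:**
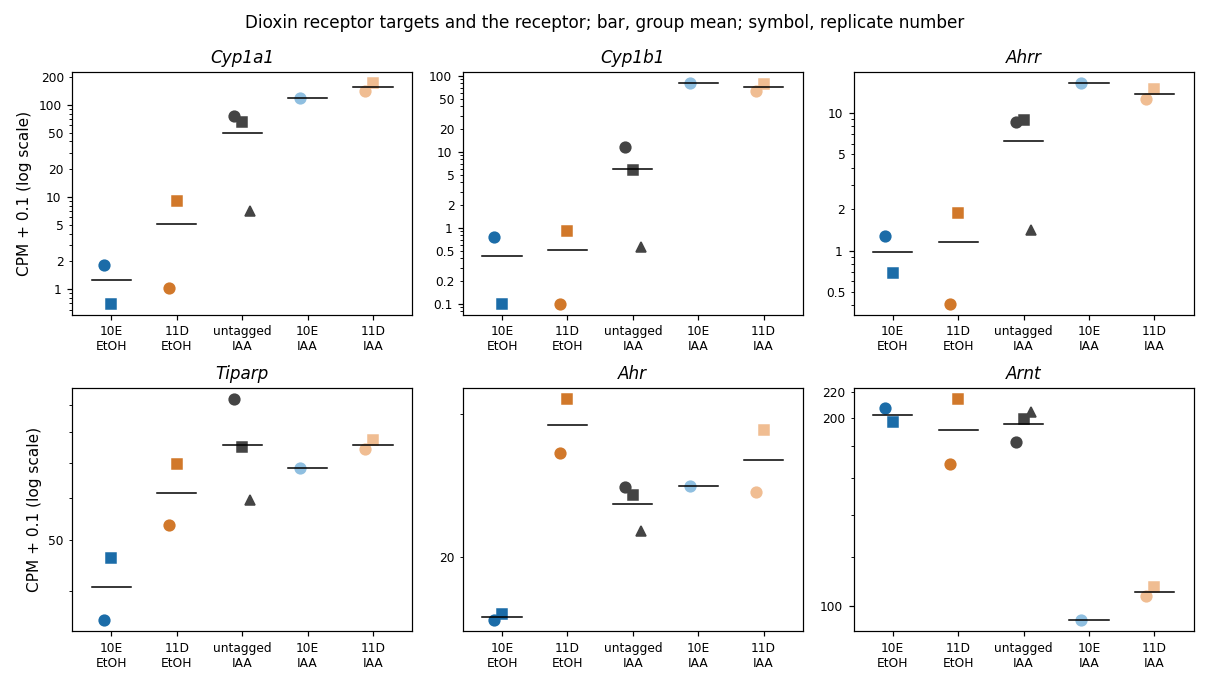
Level in each library (CPM + 0.1, logarithmic axis) of the AHR targets Cyp1a1, Cyp1b1, Ahrr and Tiparp and of the receptor genes Ahr and Arnt, for 10E EtOH, 11D EtOH, untagged IAA and, for reference, the tagged IAA libraries, with the group mean as a bar and the replicate number as the symbol. Untagged replicate 3 (triangle) lies near the EtOH libraries for the 4 targets, at 6.89 CPM for Cyp1a1 against 75.7 and 65.0 CPM in untagged replicates 1 and 2.

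Glycolytic and hypoxia-induced genes were the list with the most members higher in tagged EtOH: 11 of 36 tested were higher and 1 lower, beside 1.27% and 2.29% of all genes, with a median of 0.35. Ndufa4l2, a hypoxia-induced inhibitor of respiratory complex I, had the highest ranked fold change of the comparison. It stood at 4.98 and 6.03 CPM in 10E EtOH, at 10.6 and 12.5 CPM in 11D EtOH and at 1.16, 1.35 and 3.26 CPM in untagged libraries (1.89 ± 0.30, edgeR FDR 0.00636). Its exons overlap those of Shmt2 on the other strand.

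Enzymes of the pathway itself were higher by smaller amounts. Pfkl, the liver form of phosphofructokinase, stood at 271, 294, 198 and 174 CPM in EtOH and at 150, 167 and 173 CPM in untagged libraries (0.48 ± 0.09, edgeR FDR 0.0136). Gpi1, Pfkm, Aldoc, Tpi1 and Gapdh were higher by 0.41 to 0.72, and each lay higher in all EtOH than in all untagged libraries. Eno1, Pkm and Aldoa, with values of 0.38, 0.34 and 0.34, did not pass (FDR 0.0503, 0.0877 and 0.0996), nor did Hk2 (-0.09) or Ldha (0.24). Taken by line, Pfkl, Gpi1, Tpi1, Gapdh, Eno1, Pkm, Aldoa, Pgk1 and Ldha were called higher in 10E and not in 11D. Pfkm was called in 11D and not in 10E. Of these enzymes, Pfkl alone differed between the lines by the test between them.

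The glucose transporter gene Slc2a1 (0.58) and the hypoxia-induced genes Pfkfb3 (0.88), Ndrg1 (0.66) and Ddit4 (0.78) were also higher. Ddit4, an inhibitor of mTORC1, stood at 45.8, 31.5, 58.8 and 46.1 CPM in EtOH and at 23.8, 24.4 and 28.9 CPM in untagged libraries. Vegfa (-0.13), Bnip3l (-0.20) and Plod2 (0.10), which hypoxia also induces, did not pass. Within the list, Pfkl was higher in 10E than in 11D, and Egln3, Ndrg1 and Pfkfb3 were higher in 11D, by the test between the lines. Ak4, a mitochondrial adenylate kinase, went the other way, at 91.7, 133, 136 and 154 CPM in EtOH and 282, 280 and 171 CPM in untagged libraries (-0.93 ± 0.16, edgeR FDR 0.00785). The number of higher members was 1 without untagged replicate 1, 3 without untagged replicate 2 and 4 in the fit to 7 libraries, and 5 to 12 without any other library.

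**Figure D3:**
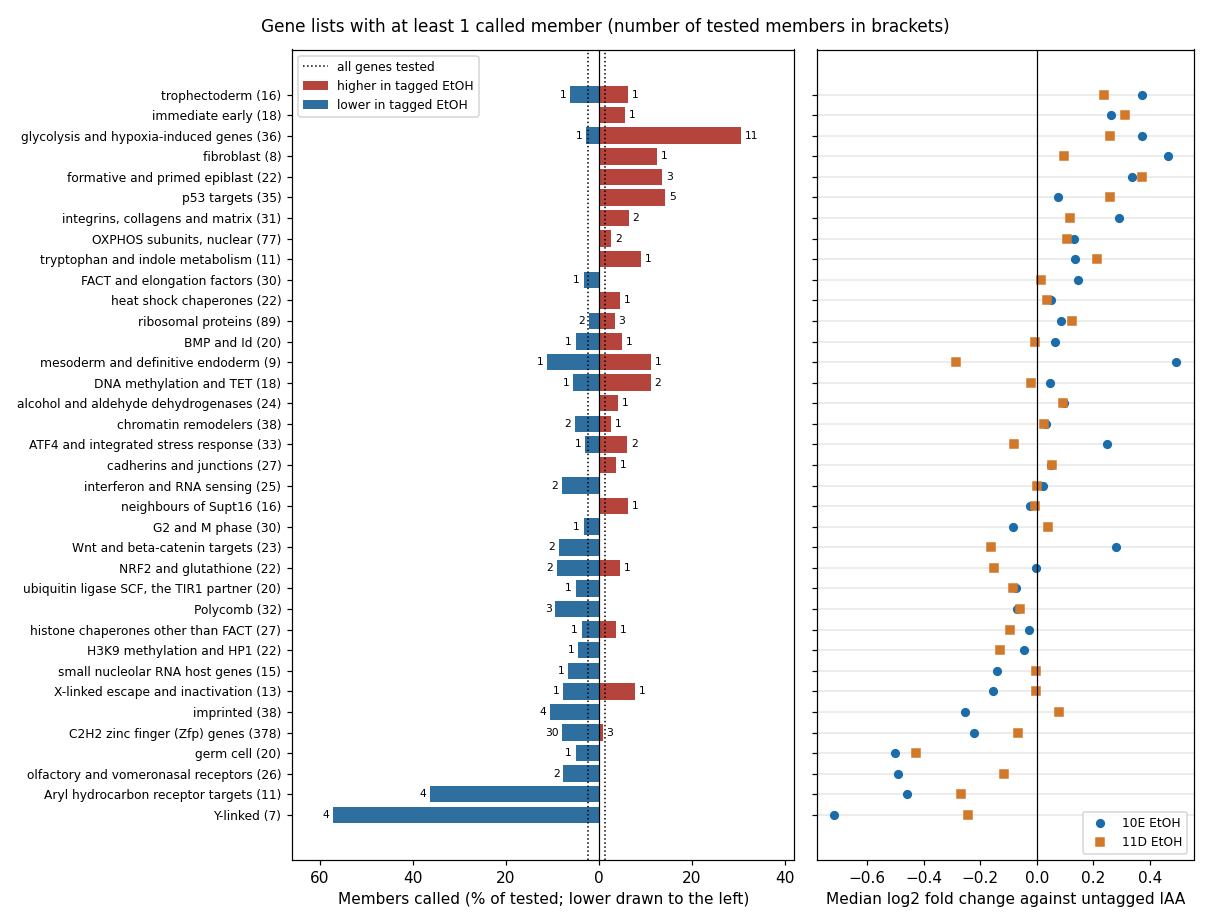
Left, the percentage of tested members called higher (right of 0) or lower (left of 0) in tagged EtOH for each gene list with at least 5 tested members and at least 1 call, with the number of calls at each bar and dotted lines at 1.27% and 2.29%, the shares over all genes tested. Right, the median log2 fold change of the list in 10E EtOH and 11D EtOH against the same untagged libraries: the glycolysis list has 11 members higher, and the Y-linked and AHR target lists have 4 lower each.

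Beyond these lists, the genes most raised in tagged EtOH came from many families. Zfp423, a zinc finger factor of neural and adipocyte precursors, stood at 12.3, 7.11, 13.1 and 9.05 CPM in EtOH and at 1.39, 3.03 and 3.73 CPM in untagged libraries (1.78 ± 0.29, edgeR FDR 0.00750). Slco4a1, an organic anion transporter, stood at 17.8 and 13 CPM in 10E EtOH, at 28.9 and 31.8 CPM in 11D EtOH and at 6.02, 8.93 and 10.8 CPM in untagged libraries (1.28 ± 0.19, edgeR FDR 0.00480). Both passed with any library left out.

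Aire and Dnmt3l are neighbours on opposite strands whose exons overlap, so reads of 1 could have been counted for the other. Aire, the autoimmune regulator, stood at 19.6, 21.2, 31.1 and 29.8 CPM in EtOH and at 4.63, 9.77 and 12.8 CPM in untagged libraries (1.38 ± 0.23, edgeR FDR 0.00748). Dnmt3l, the cofactor of de novo DNA methyltransferases, stood at 171 and 139 CPM in 10E EtOH, at 85.9 and 81.7 CPM in 11D EtOH and at 53.9, 51.6 and 78.5 CPM in untagged libraries (0.87 ± 0.14, edgeR FDR 0.00694). The lines ordered differently for the 2 genes: Dnmt3l was higher in 10E than in 11D (FDR 0.0130), and for Aire the same test gave -0.57 with an FDR of 0.276.

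The remaining 8 of the 12 highest ranked genes were low in all libraries, with at most 9.82 CPM in any EtOH library except Cdk5r2 (up to 11.5 CPM), and their log2 fold changes lay between 1.17 and 1.72. They were Sncg, which encodes gamma-synuclein, Crmp1 and Cdk5r2, both of neuronal cytoskeletal signalling, Tbx3os1, an antisense transcript whose exons overlap Tbx3, Fam171a2, Runx1t1, a transcriptional corepressor, Steap1, a metalloreductase, and Gli1, a target and effector of Hedgehog signalling. Each lost its call without at least 1 library, with FDRs up to 0.193.

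Among the 12 lowest ranked genes, 3 lie on the X chromosome and 1 on the Y chromosome. Nxf3, a germline-expressed member of the RNA export factor family, stood at 0.655, 0.593, 0.934 and 1.43 CPM in EtOH and at 4.63, 6.74 and 6.52 CPM in untagged libraries (-2.73 ± 0.33, edgeR FDR 0.00137). Xlr3b, an imprinted X-linked gene, stood at 0.131 and 0.0988 CPM in 10E EtOH, at 1.24 and 1.88 CPM in 11D EtOH and at 4.63, 3.54 and 3.73 CPM in untagged libraries (-3.06 ± 0.39, edgeR FDR 0.00159). Scml2, a Polycomb-related protein of the germline, had -1.33. On the X chromosome as a whole, 30 of 526 tested genes were lower (5.70%) and 2 were higher, beside 2.29% and 1.27% of all genes. The median was -0.12.

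Zfy1, a Y-linked zinc finger gene, stood at 0.786 and 0.790 CPM in 10E EtOH, at 4.36 and 3.32 CPM in 11D EtOH and at 8.79, 8.93 and 8.57 CPM in untagged libraries (-2.35 ± 0.25, edgeR FDR 0.000244). All 3 groups were separate. The Y-linked list had 4 of 7 tested members lower and 0 higher, beside 2.29% and 1.27% of all genes. It had 1 lower without untagged replicate 1 or 2. Taken by line against the shared untagged libraries, 5 were lower in 10E (Zfy1, Kdm5d, Uba1y, Eif2s3y and Uty) and 1 in 11D (Zfy1). The shares of all genes lower were 3.73% in 10E and 1.2% in 11D. The median of the list was -0.72 in 10E and -0.24 in 11D. Kdm5d, a Y-linked histone demethylase, was listed at 0 in both 10E EtOH libraries, at 0.622 and 0.807 CPM in 11D EtOH and at 1.16, 1.01 and 1.68 CPM in untagged libraries (edgeR FDR 0.0237). Uba1y had -0.81 and Eif2s3y -0.42. Ddx3y, Uty and Usp9y did not pass in the average of the lines. Ddx3y, at 65.3 and 78.2 CPM in 10E EtOH, was lower there than in 11D, at 119 and 135 CPM (FDR 0.0131). Each of the 7 libraries therefore held Y-linked transcripts.

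The other low-ranked genes were expressed at up to 11.5 CPM in untagged libraries. Mal, a membrane raft protein, stood at 1.05, 1.28, 0.622 and 1.97 CPM in EtOH and at 9.26, 6.74 and 4.38 CPM in untagged libraries (-2.24 ± 0.35, edgeR FDR 0.00636). Pramel6, a factor of the naive state and early embryo, stood at 0.655 to 1.87 CPM in EtOH and at 8.79, 4.38 and 2.14 CPM in untagged libraries (-2.23), and its call was lost without 10E replicate 1 or untagged replicate 1 or 2, with FDRs up to 0.118. Pkd2l1, Actn2, Ddr2, Hspb7 and Myom3, which include the muscle genes Actn2, Hspb7 and Myom3, had log2 fold changes of -1.61 to -1.31, and each lost its call without at least 1 library.

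Lists of developmental lineages had at most 3 members called in a direction, out of few tested. The shares higher were 13.6% of 22 formative and primed epiblast genes and 12.5% of 8 fibroblast genes, beside 1.27% of all genes. For 9 mesoderm and definitive endoderm genes 11.1% were higher and 11.1% lower, and for 16 trophectoderm genes 6.25% each, beside 1.27% and 2.29%. Some of the called genes, such as T, Cdx2 and Dnmt3b, differed between the lines. T, which encodes brachyury and marks primitive streak and mesoderm, stood at 12.4 and 16.7 CPM in 10E EtOH, at 0.934 and 0.986 CPM in 11D EtOH and at 14.6, 11 and 12.1 CPM in untagged libraries. The test between the lines gave 3.89 (edgeR FDR 1.2e-05). Cdx2, a caudal homeobox factor, stood at 1.70 and 5.93 CPM in 10E EtOH, at 0.622 and 0.179 CPM in 11D EtOH and at 8.33, 10.1 and 8.38 CPM in untagged libraries (-3.03 ± 0.41, edgeR FDR 0.00281), and it too was higher in 10E than in 11D (FDR 0.0103). Axin2, Apcdd1 and Cdx1 also differed between the lines in that direction, so 5 of 23 tested Wnt target genes did, all higher in 10E, beside 3.32% of all genes. In bulk libraries, fewer cells with a transcript and less of it per cell cannot be told apart.

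Eomes, a T-box factor of trophoblast and mesendoderm, was higher in tagged EtOH, at 8.51 to 12.1 CPM against 5.39 to 6.71 CPM (0.82, edgeR FDR 0.0460). Vim, which encodes vimentin, was higher too, at 306, 281, 377 and 293 CPM against 170, 223 and 263 CPM (0.51, FDR 0.0431). Both lost their call without untagged replicate 1 or 2, with FDRs up to 0.195. No member of the primitive endoderm (12 tested) or neural (12) lists was called by edgeR in the average of the lines. Beside 3.57% of all genes called, 0 in lists this short is no result about them. Dnmt3b, counted with the formative epiblast genes and the DNA methyltransferases, stood at 108 and 129 CPM in 10E EtOH, at 201 and 181 CPM in 11D EtOH and at 111, 107 and 122 CPM in untagged libraries, so that the call (0.40, FDR 0.0312) followed 11D (lines FDR 0.00582).

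Zinc finger genes named Zfp, most of which encode DNA-binding repressors, had 30 of 378 tested members lower (7.94%) and 3 higher, beside 2.29% and 1.27% of all genes. Their median was -0.16. Zfp638 stood at 126 and 124 CPM in 10E EtOH, at 162 and 173 CPM in 11D EtOH and at 247, 211 and 210 CPM in untagged libraries (-0.62 ± 0.09, edgeR FDR 0.00295). Zfp951 stood at 7.99 and 10.1 CPM in 10E EtOH and at 43.3 and 44.4 CPM in 11D EtOH, against 43.0, 34.2 and 34.4 CPM in untagged libraries, so the average of -0.89 came from 10E. In 10E alone 55 members were lower than in the untagged line and in 11D alone 6, and 21 were lower in 10E than in 11D. The shares over all genes for these were 3.73%, 1.2% and 2.08%. The count of lower members was 3 without untagged replicate 1, 6 without 10E replicate 1, 9 without 11D replicate 1 or untagged replicate 2 and 12 in the fit to 7 libraries, and the count of higher members was 12 without 11D replicate 2.

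Chromatin regulator lists had at most 3 members called in a direction, but their shares lower were above the 2.29% of all genes. These were 9.4% of 32 Polycomb genes, 5.56% of 18 DNA methylation and TET genes and 5.26% of 38 chromatin remodelers. They were 4.55% of 22 H3K9 methylation and HP1 genes and 3.70% of 27 histone chaperones other than FACT. The shares higher were 11.1% for DNA methylation, 3.70% for the chaperones, 2.63% for remodelers and 0% for Polycomb and H3K9 genes, beside 1.27%. Of 32 Polycomb genes, 3 were lower and 0 higher, beside 2.29% and 1.27% of all genes: Mtf2, a PRC2 accessory subunit that reads H3K36 methylation (-0.50), Suz12, a core PRC2 subunit (-0.42), and Pcgf1, a subunit of variant PRC1 (-0.70). Mtf2 stood at 531, 574, 579 and 632 CPM in EtOH and at 997, 758 and 709 CPM in untagged libraries. Uhrf2 (-0.63), Kdm3a, an H3K9 demethylase (-0.50), Hells (-0.50) and Atrx (-0.37), both helicases of the SNF2 family, were lower. Smarcd3, a BAF subunit (1.11), and Npm3, a nucleoplasmin family chaperone (0.43), were higher. Apart from untagged replicate 2 for Hells, each of these 9 lost its call without either of untagged replicates 1 and 2, with FDRs up to 0.224.

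The stress lists below had at most 5 members called in a direction, but each had a share above that of all genes in at least 1 direction. Of all genes tested, 3.57% were called in either direction, 1.27% higher and 2.29% lower. The share higher was 14.3% for p53 targets, 6.06% for the integrated stress response and 5.56% for immediate early genes. It was 4.55% each for NRF2 and heat shock genes. The share lower was 9.09% for NRF2 genes, 8% for interferon genes and 3.03% for the integrated stress response. Of 35 p53 target genes, 5 were higher (Plk3, Gtse1, Zfp365, Sesn2 and Bax, by 0.40 to 0.78) and 0 lower, beside 1.27% and 2.29% of all genes, and 0 higher members were counted without untagged replicate 1 or 2. Plk3, a stress-activated kinase, stood at 20.8, 14.3, 15.9 and 19.6 CPM in EtOH and at 8.56, 11.1 and 11 CPM in untagged libraries. Gpx4, the peroxidase that protects lipids, was higher (0.45), and Me1, malic enzyme (-0.51), and Gpx2 (-1.95) were lower, out of 22 genes for NRF2 and glutathione. Oas1a (-0.99) and Oas1g (-0.80), sensors of double-stranded RNA, were the 2 called of 25 interferon genes. Asns was lower (-0.35) and Sesn2 and Ddit4 higher among 33 genes of the integrated stress response. Hspb1 (0.55) was the 1 called of 22 heat shock chaperones and Nr4a1 (0.55) of 18 immediate early genes. Each of these genes, the p53 targets included, lost its call without untagged replicate 2.

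Genes that could bear on ethanol or indole handling were mostly not called, and of all genes tested 3.57% were called in either direction. Aldh7a1 was the 1 called of 24 alcohol and aldehyde dehydrogenase genes, at 104, 90.2, 93.7 and 95.2 CPM in EtOH and 67.8, 69.1 and 79.3 CPM in untagged libraries (0.41, edgeR FDR 0.0333), and its exons overlap those of Phax. Ido2 (0.55, FDR 0.0372), an enzyme that opens the indole ring of tryptophan, was the 1 called of 11 tryptophan and indole genes, and it was higher in 11D than in 10E (FDR 0.0132). Nae1, a subunit of the enzyme that activates NEDD8 for cullin ligases such as the TIR1 partner SCF, was lower (-0.49, FDR 0.0204), the 1 called of 20 in its list. Without untagged replicate 1 or 2 each of these 3 lost its call.

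Of 89 ribosomal protein genes, 3 were higher and 2 lower, near the 1.27% and 2.29% of all genes. Rpl41 stood at 751, 742, 810 and 806 CPM in EtOH and at 389, 553 and 541 CPM in untagged libraries (0.65 ± 0.11, edgeR FDR 0.00962), and Rpl39 at 179, 185, 155 and 203 CPM against 396, 269 and 262 CPM (-0.77 ± 0.13, FDR 0.00998). Near-identical copies of such genes share reads, which leaves some uncertainty in each value. Rpl22l1 (-0.96) was lower and Rpl28 (0.49) higher, and Snhg11, a host of small nucleolar RNAs, was lower at 17.1 to 28.3 CPM against 46.6 to 54.6 CPM (-1.12, FDR 0.00281).

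Clustered histone genes, whose main transcripts end without a poly(A) tail, had 0 of 55 members called and a median of 0.90, the highest of any list. Their sum was 3304 and 5810 CPM in 10E EtOH, 5985 and 1418 CPM in 11D EtOH and 1422, 2483 and 2362 CPM in untagged libraries. The tagged libraries thus spanned the range of all 7, and without 11D replicate 2 the list had 39 members called higher. The share of CT010467.1 was 0.129% and 2.64% in 10E EtOH, 4.27% and 0.815% in 11D EtOH and 0.131%, 0.349% and 0.327% in untagged libraries, and its part in the histone sums was not tested. Mitochondrially encoded transcripts had a median of -0.28, with 0 of 13 called, and took 1.67% to 2.26% of counts in EtOH and 2.28% to 2.73% in untagged libraries.

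Calls were uneven along the genome. On chromosome 6, 48 of 821 tested genes (5.85%) were lower and 5 higher, beside 2.29% and 1.27% of all genes. The share lower on the X chromosome was near it, at 5.70%. Chromosome 6 was cut into consecutive blocks of 25 tested genes, and 10 blocks between 66.5 and 112.9 Mb were set apart after their medians were seen. The values of these blocks are therefore a description, with no test. Over all 669 blocks of 25 tested genes in the genome, the 5th and 95th percentiles of the block medians were -0.26 and 0.25. These percentiles apply to single blocks. The medians below cover more genes, and no spread was computed for stretches of that size. Over the 250 tested genes of the segment the median log2 fold change was -0.23, with -0.26 in 10E and -0.21 in 11D, and 34 genes were lower (13.6%) and 2 higher. In 3 of the blocks, from 87.8 to 100.3 Mb, the lines parted: the median of their 75 genes was -0.24 in 10E and 0.45 in 11D. Of the 75, 31 differed between the lines, beside 3.32% of all genes. In the 175 genes of the other 7 blocks, a set that leaves out those 3 because of their values, the median was -0.35, with -0.27 in 10E and -0.37 in 11D, and 32 genes were lower (18.3%) and 1 higher.

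Relative to the other chromosomes, the 124 genes of the whole segment with at least 10 CPM lay at -0.19 and -0.20 in 10E EtOH, -0.07 and -0.05 in 11D EtOH and 0.15, 0.14 and 0.12 in untagged libraries (median log2 deviation from the mean of the 7). The 81 genes of the 7 blocks with at least 10 CPM lay at -0.13 and -0.12 in 10E EtOH, -0.22 and -0.13 in 11D EtOH and 0.22, 0.21 and 0.17 in untagged libraries. The 296 genes to the right of the segment had a median log2 fold change of -0.02, with 4 lower and 3 higher. The 275 genes to its left had a median of -0.13, with 10 lower and 0 higher. Zfp638, Kdm3a and Pcgf1, named above, lie in the segment. DNA was not measured, and the part of gene copy number in these values was not tested.

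**Figure D4:**
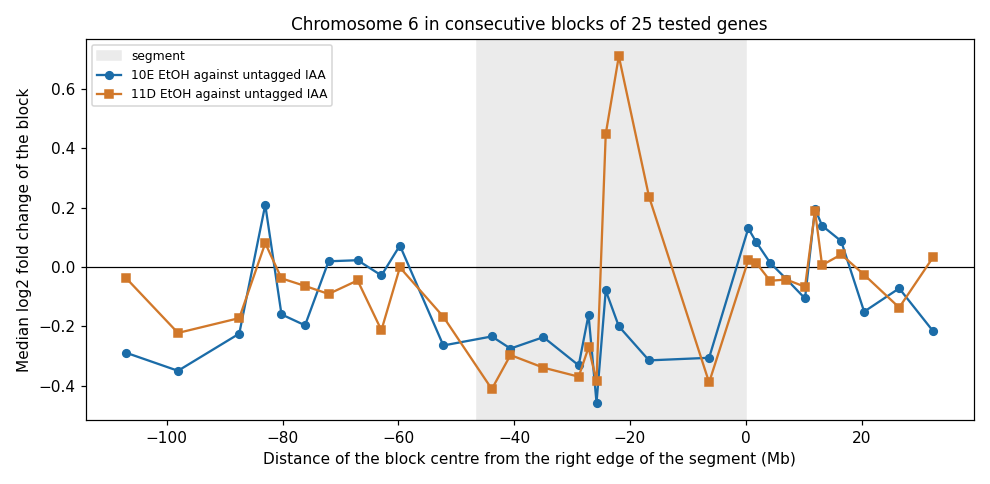
Median log2 fold change of each block of 25 tested genes along chromosome 6 in 10E EtOH and 11D EtOH against the same untagged libraries, by the distance of the block centre from the right edge of the segment (Mb, negative to the left), with the segment shaded. Within the shaded segment, blocks lie below 0 in both lines except 3 that are raised in 11D. The median over genes is -0.02 to the right of the segment and -0.13 to its left.

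The tagged lines differed at many imprinted genes, which are expressed from 1 parental copy that DNA methylation marks. Of 38 tested, 12 differed between the lines, 10 of them lower in 10E, beside 3.32% of all genes. In the average of the lines 4 were called, all lower (Rian, Meg3, Mirg and Impact), and for each of these 10E lay below and 11D above the untagged libraries. Meg3, a maternally expressed long noncoding RNA of the Dlk1-Dio3 locus, stood at 4.32 and 7.51 CPM in 10E EtOH, at 517 and 456 CPM in 11D EtOH and at 199, 209 and 203 CPM in untagged libraries. Rian, from the same locus, stood at 6.94 and 9.78, at 740 and 805, and at 427, 339 and 345 CPM. The log2 differences of 10E from 11D were -6.32 for Meg3 and -6.51 for Rian (edgeR FDR 8.2e-12 and 5.9e-12), so their averages of -1.91 and -2.19 describe neither line.

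Plagl1, a paternally expressed zinc finger gene, showed the same order: 28.7 and 31.7 CPM in 10E EtOH, 468 and 415 CPM in 11D EtOH and 143, 131 and 128 CPM in untagged libraries, and its average of -0.21 was not called (FDR 0.178). Impact stood at 30.4 and 43.5, at 209 and 237, and at 159, 133 and 128 CPM. Grb10, a growth-restraining adaptor, had the opposite order, at 152 and 133 CPM in 10E EtOH, 25.5 and 32.1 CPM in 11D EtOH and 88.4, 76.8 and 93.5 CPM in untagged libraries. The untagged line lay between the tagged lines for all 5 of these genes. Peg10, Sgce, Zrsr1, Nnat and Zdbf2 were lower in 10E than in 11D by 0.61 to 3.00, and Gnas was higher by 0.75.

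Among the other genes that separated the lines most, Magea4, an X-linked germline gene, stood at 0.786 and 0.395 CPM in 10E EtOH and at 4.67 and 5.92 CPM in 11D EtOH, with 3.03 to 4.10 CPM in untagged libraries. Hormad1, a meiotic chromosome protein, stood at 1.83 and 2.27 CPM in 10E EtOH, at 11.2 and 13.5 CPM in 11D EtOH and at 14.6, 11.5 and 10.6 CPM in untagged libraries. Klhl13, an X-linked adaptor of a cullin ligase, stood at 82.5 and 74.2, at 207 and 256, and at 248, 200 and 188 CPM. For both of the latter, edgeR called 10E and not 11D against the untagged line. Mybpc3, Npr3 and Itga7, all at most 10.9 CPM, were higher in 10E than in 11D by 2.14 to 2.31.

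**Figure D5:**
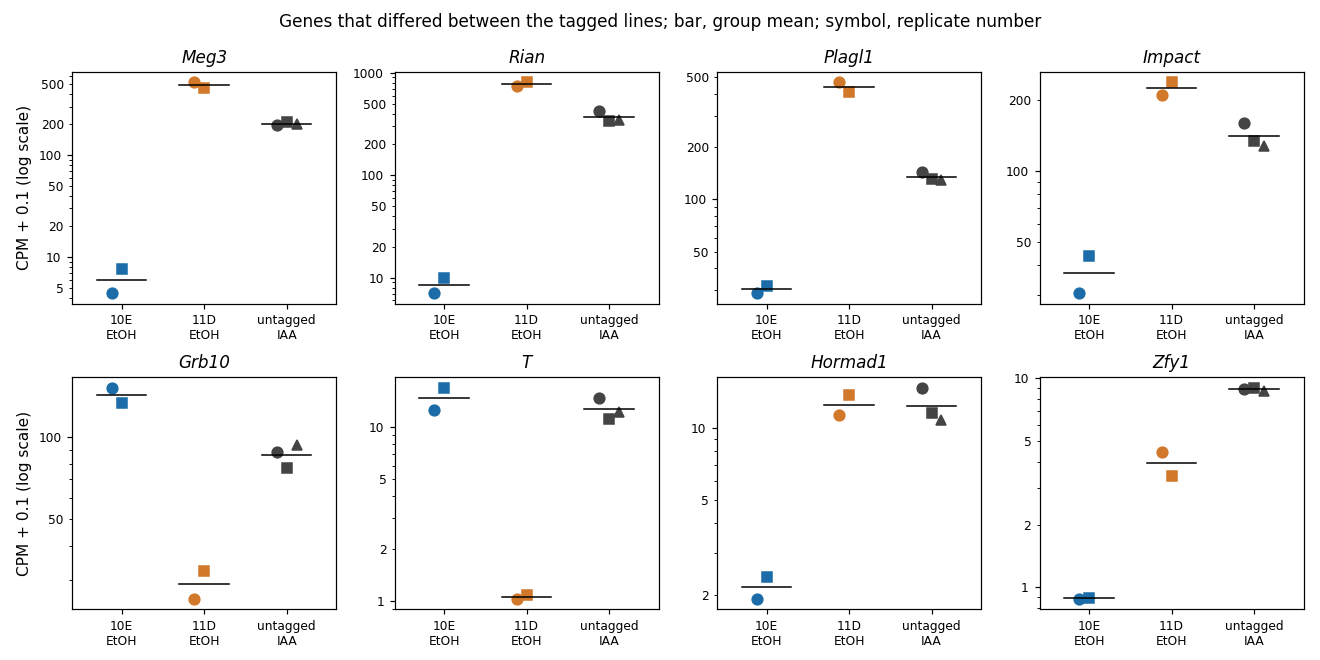
Level in each library (CPM + 0.1, logarithmic axis) of genes that differed between 10E EtOH (n = 2) and 11D EtOH (n = 2), with the untagged IAA libraries (n = 3) and the group mean as a bar. Meg3, Rian, Plagl1 and Impact are lowest in 10E and highest in 11D with the untagged line between, Grb10 has the opposite order, T is low in 11D, and Hormad1 and Zfy1 are low in 10E.

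In the average of the lines, where edgeR called 3.57% of all genes, several lists had no member called. These were LIF and STAT3 (20 tested), FGF and ERK feedback (21), Nodal and activin (16), YAP targets (19), sterol synthesis (32), the unfolded protein response (22), S phase (34), proteasome subunits (37), mitochondrial ribosomal proteins (74), clustered protocadherins (25), Hox clusters (20) and genes of the 2-cell-like state (18). Medians lay between -0.02 and 0.27 for all but the last 2. The Hox genes had a median of -0.32. For the 2-cell-like genes the median was 0.62, with 1.01 in 10E and 0.17 in 11D, and their sums overlapped, at 202 to 276 CPM in EtOH and 255 to 279 CPM in untagged libraries. Taken by line, all these lists but the protocadherins and Hox clusters had 1 to 3 members called in at least 1 line. YAP targets had 3 higher in 10E and 2 in 11D. In 10E, LIF and STAT3 had 2 higher and 1 lower, and the 2-cell-like genes 2 higher. Sterol synthesis had 3 higher in 11D. Of all genes, 2.08% were higher and 3.73% lower in 10E, and 1.34% and 1.2% in 11D. Between the lines, 5 of 32 sterol and fatty acid synthesis genes were lower in 10E, beside 2.08% of all genes. Among them were Scd1 and Scd2, the stearoyl-CoA desaturases.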

How the data were processed

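The authors deposited whole-number read counts per gene for 10 libraries, from TRIzol RNA and a directional library kit per the labels' protocols. STAR, deepTools and the mm10 build appear in the submitters' processing notes; the counter, annotation and strand setting were not given in the sources used here. There are 11 samples in the labels and 12 in the design text, and a treatment label describes ethanol for every sample. Whether replicates came from separate cultures is not stated, and p-values then reflect only the spread among these libraries, which may be technical.

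Counts were tested with edgeR 4.0.16 (R 4.3.3) by the quasi-likelihood F test, with TMM scaling, genes filtered by filterByExpr, and 1 coefficient for each line and treatment over all 10 libraries. The contrast was the mean of 10E and 11D EtOH minus untagged IAA, called at a Benjamini-Hochberg FDR under 0.05. SEs were derived from the log2 fold change and its F statistic. DESeq2 1.42.0 was an alternative, beside other scalings, filters, sample sets and leave-outs. On simulated data for this comparison (16103 genes), 95% of 100 genes changed 2-fold and 100% of 100 changed 4-fold were recovered, with 9 unchanged genes called. The changed genes were drawn above a minimum mean level and changed alike in both tagged lines, and no difference between the lines was simulated. These rates therefore do not cover the lowest genes or genes on which the lines differ.

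Positions and exon overlaps came from GENCODE vM21 (GRCm38), matched by symbol for 17022 of the 17439 tested genes. The genes named were, by rule, the FACT genes and 10 pluripotency factors, the 12 highest and 12 lowest called fold changes among genes with a mean of at least 2 CPM, the same sign in both lines and no overlap between groups, up to 2 called members per list and direction, called neighbours of Supt16, and the 6 highest and 6 lowest called fold changes between the lines. Predicted genes, Riken clones and pseudogenes were left out of the ranks. Others were named after their values were seen. Members and lists were chosen with earlier results of these data known.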

Additional observations from a re-analysis of the deposited data

Results flagged for a closer look

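Klf4, T, Hormad1, Rian, Meg3, Klhl13 and Zfp951 had different departures from the untagged line in 10E and 11D by edgeR's test of the difference between the lines. The log2 difference, 10E minus 11D, was 0.957 for Klf4, 3.89 for T, -2.6 for Hormad1, -6.51 for Rian, -6.32 for Meg3, -1.57 for Klhl13 and -2.27 for Zfp951. For T the line that departed was 11D, and for Hormad1, Klhl13 and Zfp951 it was 10E, while for Klf4, Rian and Meg3 the lines lay on opposite sides of the untagged level.

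In 3 genes, 1 of the 4 tagged EtOH libraries stood far from the other 3 on the log2(CPM + 0.5) scale, where Dixon's ratio is the gap to the nearest library over the whole range. Nr4a1 had a ratio of 0.9, with 39.8 CPM in 11D replicate 2 against 51.0 to 52.5 CPM. Kdm3a had a ratio of 0.974, with 114 CPM in 10E replicate 1 against 157 to 158 CPM. Smarcd3 had a ratio of 0.95, with 8.00 CPM in 10E replicate 2 against 15.6 to 16.1 CPM. Chance puts about 1 in 20 groups past this limit, and the low library was a different one for each gene.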

How the results depend on the processing

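The 622 genes called in tagged EtOH against untagged IAA became 222 in a fit to the 7 libraries alone, 349 in that fit with the same genes tested (an alternative chosen after seeing the data), 0 with the lines as replicates of 1 group, 956 with library totals and 1366 without a filter, and 83 to 1003 with 1 library left out. The 1013 genes of 10E became 377, or 614 with the same genes, in the 7 libraries, 1844 without a filter and 44 to 1493 with 1 library left out. The 443 genes of 11D became 245 in the 7 libraries, 836 without a filter, 274 without the 2 libraries richest in CT010467.1 and 146 to 491 with 1 library left out. The 579 genes between the lines became 976 without a filter and 75 to 830 with 1 library left out. Rian and Meg3 turned to 0.082 (edgeR FDR 0.978) and 0.27 (FDR 0.917) with the lines as replicates of 1 group. The cause of these changes was not tested.

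Replicate numbers did not pair the samples: deviations of same-numbered libraries correlated, over 11286 genes, at -0.306 between the tagged lines, at 0.033 and 0.113 between 10E and the untagged line and at -0.320 and -0.269 between 11D and the untagged line. With a replicate block the counts were 416, 571, 292 and 354 in the same order, and with crossed numbers, chosen after seeing the data, 2199, 2837, 1070 and 1186. Depth, lowest at 3554390 counts, limits low genes most.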
